A study of Mus musculus with 12 samples.

Results

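The 9 genes described here code for the Sgk kinases and for proteins of sodium transport that lie around them. They are *Sgk1*, *Sgk2*, *Sgk3*, *Nedd4l*, *Scnn1a*, *Slc12a3*, *Slc9a3*, *Atp1b1* and *Wnk1*, found by symbol among the 47729 genes of the count table, and all 9 were present once. They were selected on earlier results of the same libraries. Their differences between stress and Ctrl and between CORT and vehicle are therefore given as a description, without a p-value. RNA was measured in intestinal stem cells (ISCs) sorted as the live EpCAM+ CD24- cells with the brightest green fluorescence, without CD45, CD31 and TER119, out of crypts of the small intestine. The mice carried the *Lgr5-EGFP-IRES-CreERT2* knock-in. This allele, present in all 4 groups, drives EGFP and CreERT2 from the locus of the stem cell gene *Lgr5*. There were 3 libraries in each group. Ctrl mice were not restrained, stress mice were held in a tube (3 h of restraint per session) on 1 day, vehicle mice received an intraperitoneal injection of 20% sulfobutylether-β-cyclodextrin, and CORT mice received corticosterone at 5 mg/kg in that solution. In the chronic restraint procedure of the methods, controls went without food and water for as long as the restrained mice. This is not stated separately for the exposure on 1 day, and no such deprivation is given for vehicle and CORT mice. The sample labels name the stress group after chronic restraint, whereas the methods describe a single exposure for this experiment. Stress libraries 1+2 and 4+5+6 carry joined numbers, which reads as a pool of mice, and the methods give mice of both sexes, 8 to 10 weeks old, without the sex behind each library.

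Serum- and glucocorticoid-regulated kinases belong to the same kinase family as Akt. *Sgk1* is known as an immediate target of the glucocorticoid and mineralocorticoid receptors, and its protein is switched on by mTORC2 and Pdk1 downstream of PI3-kinase. In salt-absorbing epithelia, Sgk1 phosphorylates the ubiquitin ligase Nedd4-2 (*Nedd4l*), which otherwise removes the epithelial sodium channel ENaC (*Scnn1a* codes for its alpha subunit) from the membrane. *Slc12a3* codes for the thiazide-sensitive sodium-chloride cotransporter NCC, which the WNK kinases (*Wnk1*) control, and *Slc9a3* for NHE3, the main sodium-proton exchanger of the absorptive brush border. *Atp1b1* codes for the beta subunit of the sodium-potassium ATPase, which pumps sodium out at the base of the cell.

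The libraries held 15934907 to 17135770 estimated counts in Ctrl and stress, 16465961 to 31280267 in vehicle and 29426183 to 69533214 in CORT. A count stood for 75 covered bases, so a pair of 150-base reads makes up to 4 counts. Levels are given as CPM (counts scaled to library size with the TMM factors of edgeR), and as FPKM where genes are compared with each other. The stem cell markers *Lgr5*, *Olfm4*, *Ascl2*, *Smoc2*, *Axin2* and *Rgmb* summed to between 8629 and 11847 CPM in the 12 libraries. Singly, 3 of these 6 were lower in CORT than in vehicle at an adjusted p below 0.05 (edgeR, median log2 difference -0.34 over the 6), and 1 was lower in stress than in Ctrl (median -0.12). Of 6 Paneth cell markers, 3 were lower in CORT (median -0.59). Blood markers summed to at most 8.55 CPM and stromal and endothelial markers to at most 4.07, with *Col3a1* and *Cdh5* at 0 in all 12 libraries. Enterocyte markers (*Alpi*, *Fabp1*, *Fabp2*, *Apoa1*, *Sis* and *Lct*) summed to between 121 and 193 CPM in Ctrl, vehicle and CORT, and to 787, 278 and 1529 CPM in stress 1+2, stress 3 and stress 4+5+6. In sorted cells measured in bulk, a larger number of cells of a type and more RNA per cell cannot be told apart.

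Per length of transcript, *Atp1b1* was the most abundant of the 9 genes in all 4 groups, at 455 ± 21.6 FPKM in Ctrl (SD, n = 3), which placed it 156th of all genes. *Wnk1* followed in Ctrl at 19.5 ± 2.88 FPKM. *Sgk1* at 6.06 ± 1.51 FPKM and *Nedd4l* at 5.86 ± 0.351 came next, and their libraries overlapped. *Sgk3* stood at 2.16 ± 0.228 FPKM and *Scnn1a* at 1.46 ± 0.502 FPKM, with no overlap between the libraries of these neighbours. *Slc9a3*, *Sgk2* and *Slc12a3* were near or at 0 in Ctrl. *Sgk1* stood above *Wnk1* in the second place in stress (74.8 ± 18.3 FPKM) and in CORT (139 ± 102 FPKM). Lower in the order, *Slc9a3* went from place 7 in Ctrl to place 5 in stress, where its libraries overlapped with those of *Sgk3*. *Slc12a3*, last in Ctrl, stood at place 7 in CORT and above *Slc9a3* without overlap, and *Scnn1a* stood above *Sgk3* there with overlap. By mean FPKM *Sgk1* held place 8097 of all genes in Ctrl and 910 in stress. It held place 10052 in vehicle and 451 in CORT.

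**Figure D1:**
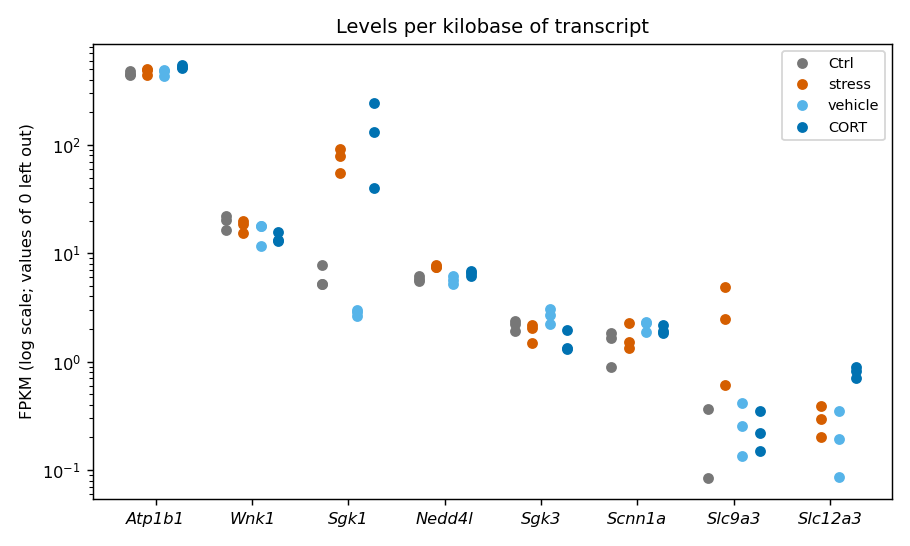
FPKM of 8 of the 9 genes (log scale) in each of the 12 libraries, one point per library, coloured by group; *Sgk2* and values of 0 are left out. *Sgk1* lies below *Wnk1* in Ctrl and vehicle and above it in stress and CORT.

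*Sgk1* (ENSMUSG00000019970, mm10, chromosome 10, 21882184 to 21999903, plus strand) differed most clearly of the 9 genes in both comparisons. Its level was 14.5, 21.3 and 13.7 CPM in Ctrl 1, 2 and 3, and 244, 152 and 206 CPM in stress 1+2, 3 and 4+5+6. It was 6.38, 6.77 and 7.57 CPM in vehicle 3, 5 and 6, and 679, 389 and 116 CPM in CORT 2, 4 and 5. All treated libraries lay far above all libraries of their own control group. The mean went from 16.5 ± 4.18 CPM in Ctrl to 200.3 ± 46.2 CPM in stress, a fitted log2 difference of 3.60 ± 0.21 (SE) or 12.2-fold. From vehicle (6.91 ± 0.608 CPM) to CORT (394 ± 281 CPM) the log2 difference was 5.80 ± 0.59, or 55.8-fold. When single libraries were left out, the log2 difference stayed between 3.44 and 3.83 for stress and between 5.16 and 6.24 for CORT.

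The CORT group was the most uneven in *Sgk1*, with a coefficient of variation of 71.3% against 25.4% in Ctrl, 23.1% in stress and 8.81% in vehicle. CORT 5, the shallowest of the CORT libraries, had the lowest level, and its 116 CPM lay below all 3 stress libraries, so the levels of the treated groups overlapped. CORT 5 was also the lowest of the CORT libraries in *Tsc22d3* (Gilz, a glucocorticoid-induced leucine zipper protein), at 123 CPM against 174 and 169, and in *Usp2*, at 55.4 CPM against 79.1 and 73.3. It was lowest as well in *Slc9a2*, *Nedd4l* and *Slc12a3*, at 53.2, 58.9 and 2.73 CPM. Among genes that were lower in CORT than in vehicle, *Kcne3*, *Kcnn4*, *Ezr*, *Prss8* and *Sgk3* had their highest CORT level in CORT 5. *Nr3c1* and *Slc9a3r1* did not. Some genes that were higher in CORT than in vehicle did not have their lowest CORT level in CORT 5. *Pik3r1*, *Chp1* and *Atp1b1* had their highest CORT level in CORT 5, and *Slc5a1* and *Cftr* were not lowest there. The log2 difference for stress minus that for CORT was -2.20 ± 0.64 in *Sgk1*. By its construction this value also holds the difference between the control groups. From Ctrl to vehicle *Sgk1* fell by 1.25 ± 0.21 on the log2 scale (adjusted p = 0.0206, edgeR's quasi-likelihood test with Benjamini-Hochberg adjustment), with all 3 vehicle libraries below all 3 Ctrl libraries. These libraries were also the control groups of the comparisons that selected the genes, so this p-value is not independent of that selection. Of all genes tested between vehicle and Ctrl, 0.359% passed the adjusted p of 0.05 and a 2-fold change, and of the 7 members tested *Sgk1* did. The adjusted p was 0.354 with all 12 libraries in 1 fit, 0.101 and 0.0946 with log2 FPKM in limma, and 0.0858, 0.0897 and 0.0766 without Ctrl 1, Ctrl 2 and vehicle 6, so that the call depends on these choices.

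**Figure D2:**
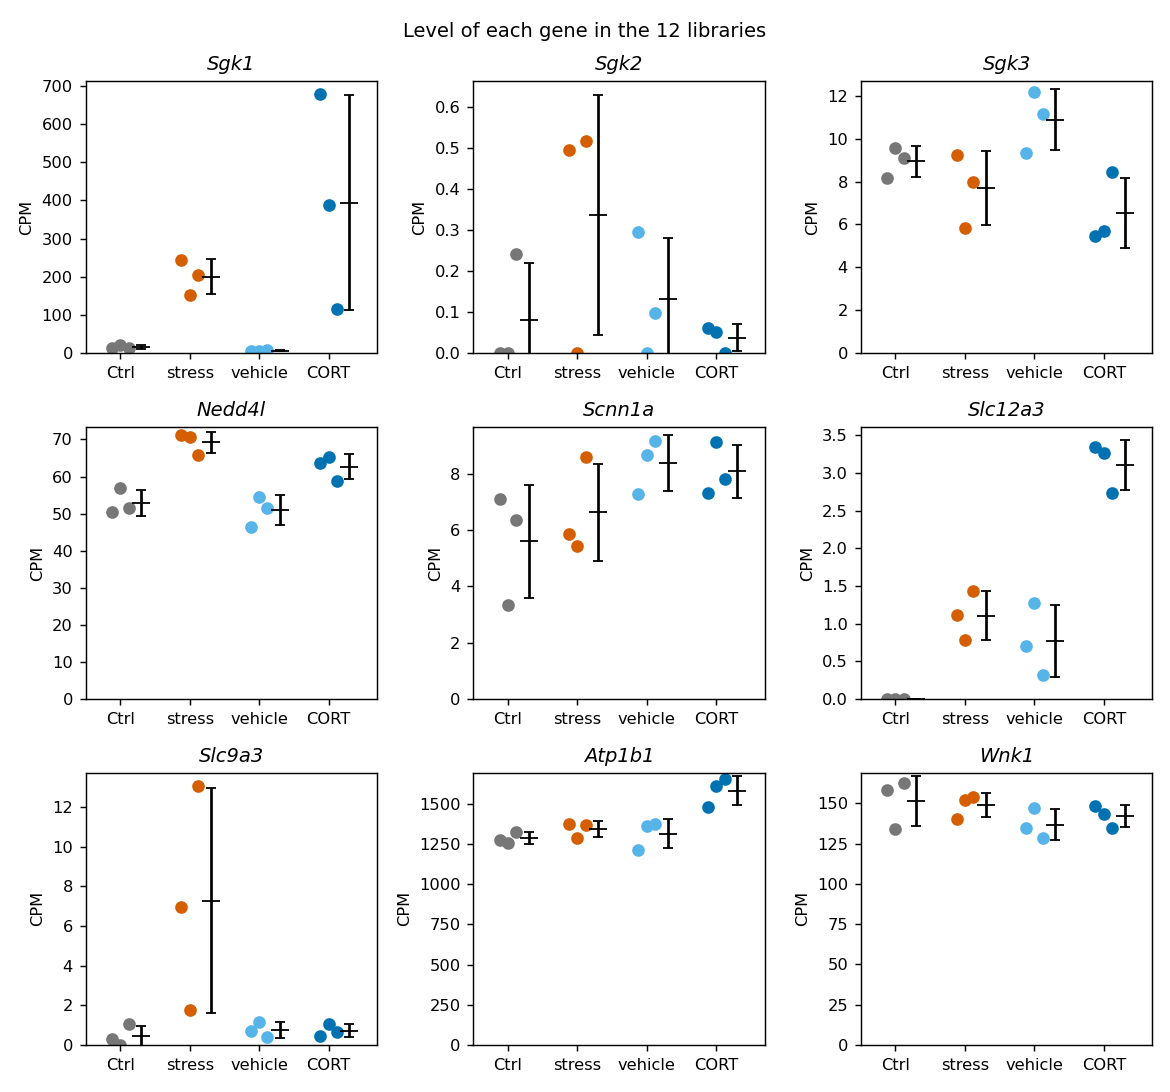
Level of each of the 9 genes in CPM (linear axis from 0, a different scale in each panel) in the 12 libraries, one point per library, with the mean ± SD of each group (n = 3) in black. *Sgk1* is at 116 to 679 CPM in CORT and at 152 to 244 in stress against at most 21.3 in the control groups, while *Wnk1* and *Scnn1a* overlap between the groups of both comparisons.

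Promoter sequence was looked at for *Sgk1* because corticosterone acts through a receptor that binds a known element, an inverted repeat of 6 letters with a spacer of 3 bases. The full element searched was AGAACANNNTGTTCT, and its single arm AGAACA or, on the other strand, TGTTCT, both of which the full element holds. Windows of 300 bases (250 before and 50 after a start site) came from RefSeq, build GRCm38.p6, for 5 of the 9 genes, with 6 windows for *Sgk1* and 10 for the 5 genes together. The full element was in 3 of all 32851 windows (0.00913%), and 1 of these was an *Sgk1* window. A single arm was in 19.0% of all windows and in 3 of the 10 windows here, all of them of *Sgk1*. The windows of *Slc12a3*, *Slc9a3*, *Atp1b1* and *Wnk1* held neither. Letters had to match exactly, and sites with other letters or outside the windows were not searched for. The 3 *Sgk1* windows are shown up to the base before the start, plus strand, with the arms in capitals.
*Sgk1* chr10:21881934-21882183: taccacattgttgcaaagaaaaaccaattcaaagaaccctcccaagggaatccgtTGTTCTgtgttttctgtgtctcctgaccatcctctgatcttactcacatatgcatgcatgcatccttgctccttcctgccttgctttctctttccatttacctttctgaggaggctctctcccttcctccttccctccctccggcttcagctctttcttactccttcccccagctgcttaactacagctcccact
*Sgk1* chr10:21991973-21992222: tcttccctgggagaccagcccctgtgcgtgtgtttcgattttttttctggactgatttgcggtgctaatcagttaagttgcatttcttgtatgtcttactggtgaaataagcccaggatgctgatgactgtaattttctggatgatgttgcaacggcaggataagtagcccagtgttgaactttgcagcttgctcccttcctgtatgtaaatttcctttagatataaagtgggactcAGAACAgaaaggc
*Sgk1* chr10:21993640-21993889: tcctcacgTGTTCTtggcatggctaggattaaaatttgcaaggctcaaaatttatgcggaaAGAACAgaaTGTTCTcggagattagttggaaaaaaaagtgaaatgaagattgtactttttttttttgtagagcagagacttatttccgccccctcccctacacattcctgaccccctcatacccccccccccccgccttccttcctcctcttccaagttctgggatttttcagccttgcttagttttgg

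The full element of the third window, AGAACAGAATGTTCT, lies at 21993701 to 21993715, from position -189 to position -175 relative to the start. That start, 21993890, is the first base of the annotated transcript Sgk1-202, 1 of 13 transcripts of the gene, and lies 111706 bases after the first base of the gene. In GENCODE M21 the element is intronic in the 5 transcripts that span it and exonic in 0. In the first and second windows the arm begins at position -195 and at position -13. These letters describe the windows. The files give 1 value per gene, so the level of a single transcript or start was not analysed here.

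The other Sgk kinases did not share this pattern. *Sgk2* (ENSMUSG00000017868, chromosome 2, 162987330 to 163014127) had at most 9 estimated counts in any library, about 2.25 read pairs, and failed the filter on low counts in all 3 comparisons. *Sgk3* (ENSMUSG00000025915, chromosome 1, 9798107 to 9900845), whose protein carries a lipid-binding domain and sits on endosomes, was at 8.14, 9.58 and 9.09 CPM in Ctrl and at 9.26, 5.85 and 7.97 CPM in stress. These groups overlapped, with a log2 difference of -0.21 ± 0.24. In vehicle *Sgk3* was at 9.34, 12.1 and 11.2 CPM and in CORT at 5.48, 5.68 and 8.43 CPM, so that all CORT libraries lay below all vehicle libraries (log2 difference -0.76 ± 0.22). The CORT library with the highest *Sgk3* level, CORT 5, was the one with the lowest *Sgk1* level. In FPKM, *Sgk1* made up 69.7% to 76.8% of the sum of the 3 kinases in Ctrl and 48.6% to 53.0% in vehicle. Its share was 97.3% to 97.5% in stress and 95.4% to 99.5% in CORT, and *Sgk3* held nearly all of the rest.

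*Nedd4l*, the ubiquitin ligase that Sgk1 phosphorylates (ENSMUSG00000024589), differed by a small amount with little spread. It was at 50.3, 57.0 and 51.5 CPM in Ctrl and at 71.1, 70.7 and 65.9 CPM in stress, and at 46.5, 54.6 and 51.6 CPM in vehicle and 63.6, 65.4 and 58.9 CPM in CORT. The treated libraries were above their control libraries in both comparisons without overlap, by 0.39 ± 0.09 and 0.28 ± 0.08 on the log2 scale. Between vehicle and Ctrl the log2 difference was -0.06 ± 0.10 (adjusted p = 0.895, edgeR). *Nedd4l* shares 277 exonic bases with an antisense gene that has no row in the count table, and reads of such a pair cannot be told apart without strand.

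*Slc12a3* (ENSMUSG00000031766, chromosome 8, 94329192 to 94366213) was measured from few reads. It had 0 counts in all 3 Ctrl libraries, which allows up to 12 counts or 0.238 CPM over the group, and 18, 13 and 25 counts in stress (1.11, 0.784 and 1.43 CPM). In vehicle it had 12, 22 and 10 counts (0.709, 1.27 and 0.326 CPM) and in CORT 220, 190 and 79 counts (3.34, 3.26 and 2.73 CPM). Set against that limit over the Ctrl group, the group mean was 4.67-fold in stress and 3.24-fold in vehicle. The stress value rests on 56 counts (about 14 read pairs) and the vehicle value on 44 (about 11). The counting error of these 2 means is not included, so the values are not minimum folds. *Slc12a3* passed the filter between stress and Ctrl through its stress libraries alone, and between vehicle and Ctrl it did not pass. From vehicle to CORT the log2 difference was 2.04 ± 0.47, or 4.11-fold, with no overlap, and CORT libraries lay above the libraries of all other groups. On the log2(FPKM + 1) scale, which understates a change at so low a level, it was 0.58.

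*Slc9a3* (ENSMUSG00000036123, chromosome 13, 74121515 to 74166064) had its highest levels in the stress group, and unevenly so. Its level was 0.291, 0 and 1.03 CPM in Ctrl 1, 2 and 3 and 6.97, 1.75 and 13.1 CPM in stress 1+2, 3 and 4+5+6, with no overlap and a log2 difference of 4.03 ± 0.94. Vehicle libraries were at 0.709, 1.16 and 0.392 CPM and CORT libraries at 0.425, 1.06 and 0.657 CPM, and the groups overlapped (log2 difference -0.07 ± 0.61). The 3 stress libraries had the same order in *Slc9a3* as in the summed enterocyte markers, lowest in stress 3 (278 CPM of markers) and highest in stress 4+5+6 (1529 CPM). All 6 enterocyte markers were tested between stress and Ctrl, and 5 of them were higher at an adjusted p below 0.05 (edgeR), with a median log2 difference of 3.20 over the 6. Of the 6 goblet cell markers 2 were higher, and of the 6 Paneth cell markers 1. The summed goblet cell markers had the same order as the enterocyte markers, at 932, 502 and 1448 CPM in stress 1+2, 3 and 4+5+6. The summed Paneth cell markers were also lowest in stress 3 but highest in stress 1+2. *Slc12a3* had that order too within stress, but its highest levels were in CORT, where the enterocyte markers summed to 121, 177 and 163 CPM. The part of these markers in the values of *Slc9a3* and *Slc12a3* was not tested.

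**Figure D3:**
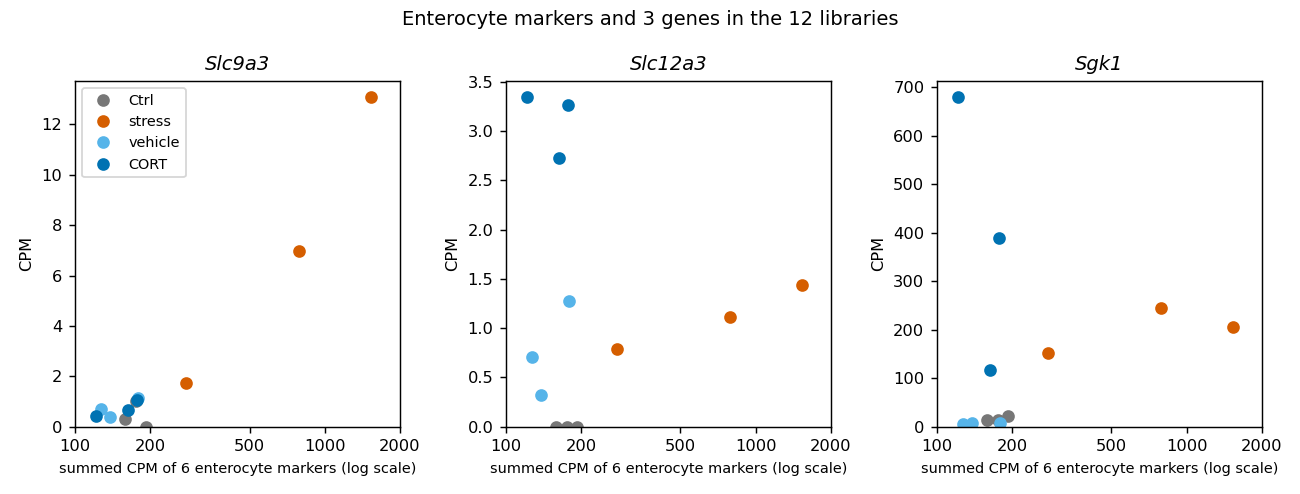
CPM of *Slc9a3*, *Slc12a3* and *Sgk1* against the summed CPM of 6 enterocyte markers (log scale) in the 12 libraries, one point per library. The stress libraries with more marker RNA have more *Slc9a3*, up to 13.1 CPM at 1529 CPM of markers, whereas *Slc12a3* and *Sgk1* are highest in CORT libraries with at most 177 CPM of markers.

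*Scnn1a*, *Wnk1* and *Atp1b1* kept similar levels between stress and Ctrl. *Scnn1a* (ENSMUSG00000030340, chromosome 6, 125320659 to 125344943) was at 7.10, 3.33 and 6.36 CPM in Ctrl and 5.86, 5.43 and 8.60 CPM in stress (log2 difference 0.25 ± 0.34), and at 7.27, 8.68 and 9.17 CPM in vehicle and 7.32, 9.13 and 7.81 CPM in CORT (-0.07 ± 0.18). The groups overlapped in both comparisons, and the sign for stress turned without one of the Ctrl libraries (-0.02 without Ctrl 2). *Scnn1b* and *Scnn1g*, which code for the other subunits of ENaC, failed the filter in all comparisons, with a mean of 0 CPM in Ctrl, vehicle and CORT. *Wnk1* (ENSMUSG00000045962, chromosome 6, 119923969 to 120038672, minus strand) was between 128 and 163 CPM in all libraries, with log2 differences of -0.02 ± 0.10 for stress and 0.04 ± 0.08 for CORT. *Atp1b1* (ENSMUSG00000026576, chromosome 1, 164437109 to 164458355, minus strand) was at 1275, 1256 and 1327 CPM in Ctrl and 1376, 1284 and 1367 CPM in stress, which overlapped. In vehicle it was at 1212, 1359 and 1372 CPM and in CORT at 1482, 1610 and 1653 CPM, higher without overlap by 0.25 ± 0.09 on the log2 scale. *Atp1b1* shares 575 exonic bases with *Nme7* on the other strand, which had 248 to 1327 counts per library against 20505 to 97583 for *Atp1b1*. None of *Scnn1a*, *Wnk1*, *Atp1b1*, *Sgk3* and *Slc9a3* passed the test between vehicle and Ctrl, where the adjusted p was 0.507 (edgeR) for *Scnn1a* and above that for the other 4.

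**Figure D4:**
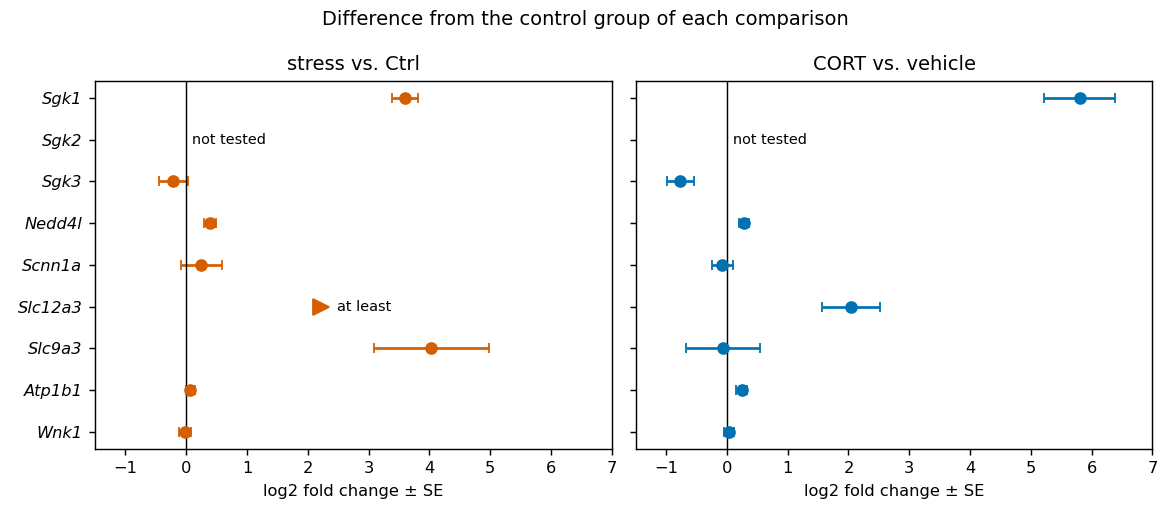
Log2 fold change ± SE of each gene in stress vs. Ctrl (left) and CORT vs. vehicle (right), fitted with edgeR on 3 libraries per group. The triangle, marked "at least", is the stress mean of *Slc12a3* over the limit for Ctrl, where it had no counts. It leaves out the counting error of the stress mean. *Sgk1* is far to the right in both panels, *Slc9a3* in the left one and *Sgk3* is left of 0 by more than its SE in the right one.

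Of the 8 members that passed the filter, *Sgk1* and *Slc12a3* were past an adjusted p of 0.05 and a 2-fold change in stress vs. Ctrl, where 0.751% of all genes tested were. The same genes, again 2 of 8, were past both thresholds in CORT vs. vehicle, where 1.87% of all genes were. Since these comparisons chose the genes, nothing is read from the counts. The stress count was 1, *Sgk1*, without any one of Ctrl 1, Ctrl 2, Ctrl 3, stress 1+2 and stress 4+5+6, and 3 without stress 3, with *Slc9a3* added. The CORT count was 1 without any one of vehicle 3, vehicle 6, CORT 2, CORT 4 and CORT 5. The groups did not overlap in 4 of 8 members in stress vs. Ctrl and in 5 of 8 in CORT vs. vehicle, and among all genes tested this held for 20.4% and 28.7%. *Slc12a3* and *Slc9a3*, which are among those in stress vs. Ctrl, were near or at 0 in Ctrl and passed the filter through their stress libraries. Nothing is read from these shares either. The log2 difference for stress minus that for CORT was 4.10 ± 1.24 in *Slc9a3* and 0.55 ± 0.32 in *Sgk3*, and lay between -0.19 and 0.32 in *Nedd4l*, *Scnn1a*, *Atp1b1* and *Wnk1*.

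Other genes of the pathway were taken from 9 lists with 92 genes, written from general knowledge of the pathway, with earlier results of these libraries known, and holding none of the 9 members. Between stress and Ctrl, 73 of them could be tested, of which 2 were higher and 1 was lower at an adjusted p below 0.05 (edgeR's quasi-likelihood test), against 1.30% and 0.590% of all genes tested. Between CORT and vehicle, 7 of 73 were higher and 6 lower, against 3.64% and 4.50% of all genes. In the same comparison 3 of 6 stem cell markers and 3 of 6 Paneth cell markers were lower, and their part in these values was not tested. The median log2 difference of the lists was 0.09 in stress and -0.07 in CORT, and over all genes -0.0028 and 0.014. Both comparisons together named *Tsc22d3*, *Slc5a1* and *Kcne3*, which moved in the same direction in each.

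Of the hormone receptors and the enzymes that regenerate or inactivate corticosterone, 0 of 3 tested genes passed in stress and 1 of 3 in CORT. *Nr3c1*, the glucocorticoid receptor, was at 167 CPM in Ctrl, 161 in stress and 162 in vehicle, and at 127 in CORT, where it fell by 0.37 ± 0.07 on the log2 scale (adjusted p = 0.0120, edgeR, and 0.0521 without CORT 4). *Nr3c2*, the mineralocorticoid receptor, was far lower, at 15.9 to 20.4 CPM by group mean, and did not pass in either comparison. *Hsd11b1*, whose enzyme regenerates corticosterone, had 0 CPM in all groups. *Hsd11b2*, whose enzyme inactivates it, was at 9.56, 14.9, 28.1 and 44.6 CPM in Ctrl, stress, vehicle and CORT, and did not pass in either comparison (adjusted p = 0.183 and 0.0762), although the groups did not overlap and the log2 difference was 0.64 in each.

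The next list held kinases and subunits of kinase complexes upstream of Sgk1, and also its relatives *Akt1* and *Akt2*. Of these genes, 1 of 12 passed in CORT and 0 of 11 in stress. The gene that passed was *Pik3r1*, the regulatory p85 subunit of PI3-kinase, with 292, 319 and 279 CPM in vehicle and 409, 424 and 426 CPM in CORT, a rise of 0.48 ± 0.08 on the log2 scale (adjusted p = 0.00792, edgeR). *Pdpk1*, *Mtor*, *Rictor*, *Mapkap1* and *Mlst8*, the kinase Pdk1 and the core of mTORC2, did not pass in either comparison, with log2 differences between -0.06 and 0.30. The list of Sgk substrates and the Nedd4l pathway held 2 genes that rose in CORT, out of 13. *Tsc22d3* went from 28.0, 33.0 and 34.0 CPM in vehicle to 174, 169 and 123 CPM in CORT (log2 difference 2.27 ± 0.14, adjusted p = 5.76e-05), and from 39.7, 34.7 and 29.6 CPM in Ctrl to 99.96, 96.4 and 106 CPM in stress (1.54 ± 0.11, adjusted p = 0.000148). Its protein is known to act beside Sgk1 on the Nedd4-2 complex in kidney cells. *Usp2*, a deubiquitinase that counters Nedd4-2, rose by 0.65 ± 0.13 in CORT (adjusted p = 0.0142, and 0.0554 and 0.0681 without vehicle 5 and CORT 4). *Ndrg1*, *Ndrg2* and *Ndrg3*, of which *Ndrg1* codes for the usual substrate by which Sgk activity is read, and *Nedd4* did not pass in either comparison. *Ndrg1* had a log2 difference of 0.78 in CORT (adjusted p = 0.0628).

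Of the proteases that cleave and open ENaC, *Prss8* (prostasin) fell in CORT by 0.57 ± 0.09 on the log2 scale (adjusted p = 0.00657), from 69.9, 86.8 and 76.2 CPM in vehicle to 52.7, 51.2 and 55.4 CPM. *St14*, *Tmprss4* and *Furin* did not pass in either comparison. In the WNK cascade 0 of 7 tested genes passed in stress and 0 of 7 in CORT. *Stk39*, the SPAK kinase between WNK kinases and the cotransporters and the gene of this list with the highest mean FPKM, had log2 differences of 0.13 and 0.08 (adjusted p = 0.661 and 0.643). Among the cation-chloride cotransporters beside NCC, 0 of 6 passed in each comparison. *Slc12a2* (NKCC1), the basolateral cotransporter of secreting crypt cells, was at 2042 CPM in Ctrl and 2362 CPM in stress, far above *Slc12a3*, with adjusted p-values of 0.405 (stress) and 0.619 (CORT). Of the other subunits and regulators of the pump beside *Atp1b1*, *Atp1b3* and *Fxyd3* did not pass in either comparison (adjusted p = 0.670 and 0.741 in stress, 0.320 and 0.201 in CORT).

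In the list of exchangers and their scaffolds, 2 of 12 tested genes rose in CORT and 2 fell, against the 3.64% and 4.50% of all genes, with a median log2 difference of -0.035 over the 12. In stress 0 of 13 passed. *Slc9a2* (NHE2), a second apical exchanger, rose from 30.1, 31.4 and 34.0 CPM in vehicle to 59.6, 56.9 and 53.2 CPM in CORT (log2 difference 0.81 ± 0.09, adjusted p = 0.000939), without the overlap seen for *Slc9a3*. *Slc9a3r1* (NHERF1) and *Ezr* (ezrin), which tie NHE3 to the cytoskeleton below the brush border, fell by 0.53 ± 0.09 (adjusted p = 0.00993) and by 0.35 ± 0.07 (adjusted p = 0.0169, and 0.0611 and 0.0793 without CORT 2 and CORT 4). *Chp1*, a calcium-binding partner of the exchangers, rose by 0.28 ± 0.07 (adjusted p = 0.0465), a call lost without any 1 of the 6 libraries and with log2 FPKM in limma. In stress, *Pdzk1* and *Chp2*, genes of the same list, had log2 differences of 2.10 and 1.64 with adjusted p of 0.147 and 0.126.

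In the list of apical carriers and of routes for chloride and potassium, *Slc5a1* (the sodium-glucose cotransporter SGLT1) rose in both comparisons and *Kcne3*, the channel subunit that keeps KCNQ1 open in secreting crypt cells, fell in both. *Slc5a1* was at 213, 194 and 190 CPM in Ctrl and 363, 293 and 421 CPM in stress (log2 difference 0.86 ± 0.13, adjusted p = 0.0101, and 0.0591, 0.0684 and 0.0773 without Ctrl 1, 2 and 3, 0.073 without a filter on low counts and 0.051 with log2(FPKM + 0.1) in limma). It was at 202, 190 and 184 CPM in vehicle and 333, 354 and 336 CPM in CORT (0.81 ± 0.08, adjusted p = 0.000474). *Kcne3* fell by 0.86 ± 0.12 in stress (adjusted p = 0.00767, and 0.0503 without Ctrl 3 and 0.0627 without a filter) and by 1.15 ± 0.16 in CORT (adjusted p = 0.00326). *Kcnn4*, a calcium-gated potassium channel, fell by 0.90 ± 0.09 in CORT (adjusted p = 0.000715), and had a log2 difference of -0.43 in stress (adjusted p = 0.0613). *Cftr*, the chloride channel of secretion, rose by 0.43 ± 0.11 in CORT (adjusted p = 0.0439), a call that held without CORT 2 and was lost without any other library, in 1 fit over 12 libraries and with log2 FPKM in limma. Without stress 3, the stress library with the fewest enterocyte transcripts, 12 pathway genes passed in stress vs. Ctrl in place of 3. Among those added were the absorptive carriers *Slc15a1* (PepT1), *Slc34a2*, *Slc6a19*, *Slc26a6* and *Slc26a3*, with *Pdzk1* and *Chp2*, at log2 differences between 1.28 and 3.29, and *Slc9a2* at 0.46. With no library left out, the adjusted p of these genes was between 0.0542 and 0.231 (edgeR). Stress and Ctrl then overlapped in *Slc15a1*, *Slc34a2*, *Slc6a19*, *Pdzk1* and *Chp2*, and not in *Slc26a6*, *Slc26a3* and *Slc9a2*. With any other single library left out, 1 to 3 pathway genes passed. Since stress 3 was the stress library lowest in enterocyte markers, nothing is read from the count without it.

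**Figure D5:**
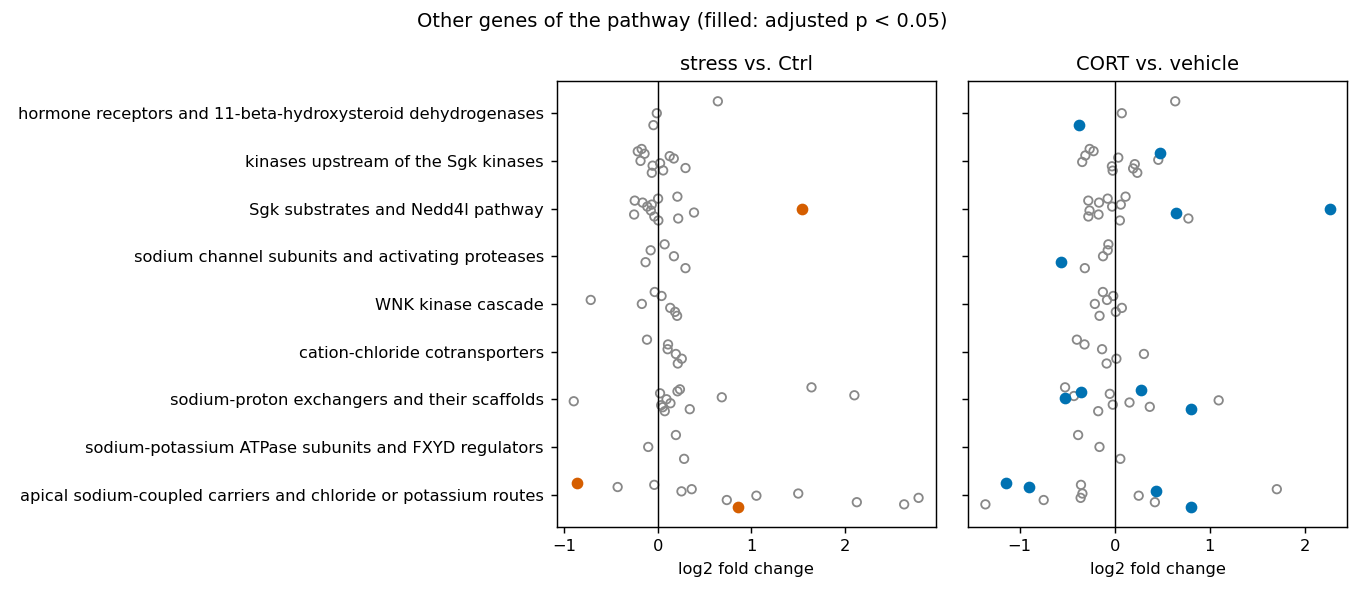
Log2 fold change of each tested gene of the 9 pathway lists, one point per gene, in stress vs. Ctrl (left) and CORT vs. vehicle (right); filled points are at an adjusted p below 0.05 (edgeR). In stress 3 points are filled and in CORT 13, and the open points far to the right in stress are absorptive carriers and exchanger scaffolds.

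The genes whose levels were most like those of *Sgk1* were sought among the 14462 others that passed the filter, by Pearson's r of log2 CPM over the 12 libraries, and the first 5 were taken. They were *Klf9* (r = 0.980), a glucocorticoid-induced transcription factor, *Ell2* (0.977), a transcription elongation factor, *Herpud1* (0.976), a protein of endoplasmic reticulum stress, *1810011O10Rik* (0.974) and *Ip6k2* (0.974), an inositol phosphate kinase. The points share 4 groups and their differences in depth. *Klf9* had 39.5 to 49.8 CPM in Ctrl against 81.9 to 105 under stress, and 31.1 to 36.3 in vehicle against 81.9 to 105 under CORT. *Herpud1* had 79.2 to 116 CPM in Ctrl against 357 to 364 under stress, and 66.1 to 89.7 in vehicle against 454 to 657 under CORT. Of the other members, *Nedd4l* had the highest r with *Sgk1* (0.873, place 148), and *Sgk3* had a negative one (-0.793).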

How the data were processed

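The authors aligned paired 150-base reads to mm10 (HISAT2 2.2.1 and StringTie 2.2.1 are named in the submitters' processing notes, while the paper's methods name featureCounts). The deposited count matrix holds estimated counts as whole numbers not divided by library size. The authors also deposited per-library FPKM and coverage (mean depth per base) for all genes. In genes with 1 transcript a count was a median of 74.9 to 75.0 covered bases, so the table follows StringTie's counting and a count is not a sequenced fragment. Coverage served to find this unit, and FPKM for levels between genes and for alternatives. The number of columns without a sample was 0.

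Counts were tested with edgeR 4.0.16 in R 4.3.3 (TMM, filterByExpr, quasi-likelihood F-test, Benjamini-Hochberg over all genes) on the 6 libraries of a comparison, with an interaction over 12. Genes at an adjusted p below 0.05 and above 2-fold were called. SE is the log2 fold change divided by the root of F. The code was checked on simulated data. Replicates are not stated to be separate animals in all cases, so p-values cover the spread between libraries. Counts of 0 were given a limit of 3 read pairs, 12 counts, over a group, for counting error only. Alternatives tried were DESeq2 1.42.0, DESeq2 size factors in edgeR, no filter, at least 10 counts in every library, 1 fit over 12 libraries, limma 3.58.1 on log2(FPKM + 1) and log2(FPKM + 0.1) at a mean FPKM of at least 0.5, and leaving out each library.

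The 9 members and the lists were chosen with earlier results of these data known. Named are all members, every pathway gene at an adjusted p below 0.05 in stress vs. Ctrl or CORT vs. vehicle, for a list with none its gene with the highest mean FPKM, and the 5 genes most like *Sgk1*. A few list members are left out of this account. Other pathway genes named were chosen after their values were seen. Symbols occurring more than once (126) were read from the gene with the highest mean count.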

Additional observations from a re-analysis of the deposited data

Results flagged for a closer look

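The interaction test over 12 libraries (edgeR) set the log2 difference for stress vs. Ctrl against that for CORT vs. vehicle. Of 14415 genes, 56 (0.388%) had an adjusted p below 0.05, and 2 of these were pathway genes. Each interaction value also contains the step from Ctrl to vehicle, so it is not a difference in response alone. *Pik3r1*, the regulatory subunit of PI3-kinase, had a log2 difference of -0.14 in stress and 0.48 in CORT, so that the difference of the effects was -0.63 ± 0.11 (adjusted p = 0.0358). It passed in 5 of 14 alternatives and was lost in the others, each with a single library left out, at an adjusted p of up to 0.0992. *Ezr*, the membrane linker ezrin, had 0.21 in stress and -0.35 in CORT, a difference of 0.56 ± 0.10 (adjusted p = 0.0393). It passed in 2 of 14 alternatives and was lost without a filter on low counts and with a single library left out in the others, at up to 0.116. The control groups did not overlap in either gene, with a vehicle vs. Ctrl log2 difference of -0.17 in *Pik3r1* and 0.22 in *Ezr*. Stress and vehicle had similar means, 302 and 296 CPM for *Pik3r1* and 224 and 227 CPM for *Ezr*. The part of the control groups in these interaction values was not tested.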

How the results depend on the processing

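Among the pathway genes, *Tsc22d3* passed in all 13 alternatives of both comparisons, and *Pik3r1*, *Prss8*, *Slc9a2*, *Slc9a3r1*, *Slc5a1*, *Kcnn4* and *Kcne3* in all 13 of CORT vs. vehicle. The other calls of pathway genes were lost in at least 1. No paired analysis was possible because the groups compared share fewer than 2 replicate numbers in their labels. The depth of Ctrl and stress limits *Slc12a3*, *Slc9a3* and *Sgk2*, which rest on few read pairs there.

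Between stress and Ctrl, 103 genes were called, against 173 with DESeq2, 32 without a filter, 45 and 48 with limma on log2(FPKM + 1) and log2(FPKM + 0.1), and 36 to 278 with single libraries left out (278 without stress 3). Of the members, 2 were called, but 1 without a filter, with at least 10 counts in every library and with both limma fits, 3 in the fit over 12 libraries, and 1 to 3 with libraries left out. Pathway genes numbered 3, and 8 with DESeq2, 1 without a filter, 5 with at least 10 counts, 6 with 12 libraries and 1 to 12 with libraries left out. Between CORT and vehicle, 274 genes were called, 159 with log2(FPKM + 1), and 178 to 268 with libraries left out (178 without CORT 4). Members numbered 2, but 1 with both limma fits and 1 to 2 with libraries left out, and pathway genes 13, 20 with DESeq2 and 8 to 12 with libraries left out. Between vehicle and Ctrl, 49 genes were called, 87 with DESeq2, 20 and 21 with limma, and 17 to 103 with libraries left out (17 without Ctrl 1, 103 without vehicle 5). The member count of 1 was 0 with both limma fits and 0 to 1 with libraries left out. The interaction had 56 genes, and 12 to 241 with libraries left out (241 without stress 3). Among the pathway genes named, signs turned in 2 that had not passed there, *Nr3c1* in stress (0.0221 and 0.0228 with limma, -0.0868 to 0.0148 with libraries left out) and *Stk39* in CORT (-0.012 and -0.0123 with limma). Of the members, signs turned in *Scnn1a* and *Wnk1* in stress (-0.0152 without Ctrl 2, and 0.0071, 0.0328 and 0.0177 without Ctrl 1, Ctrl 3 and stress 1+2), and in CORT in *Slc9a3* (0.388 and 0.206 without vehicle 5 and CORT 2) and *Wnk1* (-0.145 and -0.153 with limma, -0.0137 without vehicle 6). The causes were not tested.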

Other observations

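Between the control groups vehicle and Ctrl, 2 pathway genes had an adjusted p below 0.05 (edgeR), as *Sgk1* did, and both were named after their values were seen. *Hsd11b2*, whose enzyme inactivates corticosterone, was higher in vehicle (28.1 CPM) than in Ctrl (9.56 CPM) by 1.56 ± 0.22 on the log2 scale (adjusted p = 0.0102, edgeR, and 0.0858 and 0.0527 without Ctrl 1 and Ctrl 2). *Usp2* was higher by 0.68 ± 0.11 (adjusted p = 0.0206, edgeR). This call was lost without Ctrl 1, Ctrl 2, Ctrl 3 or vehicle 6 and with log2 FPKM in limma, with an adjusted p of at most 0.139 over all alternatives. In both genes CORT was higher again than vehicle by group mean, at 44.6 and 69.3 CPM. Of the other pathway genes that passed in CORT vs. vehicle, *Prss8*, *Kcnn4* and *Ezr* were higher in vehicle than in Ctrl without overlap. Their log2 differences were 0.27, 0.31 and 0.22. *Slc9a2* and *Pik3r1* were lower without overlap, by 0.22 and 0.17. The adjusted p of these genes lay between 0.212 and 0.506 (edgeR). Each of these differences ran opposite to the one from vehicle to CORT. In the remaining ones vehicle and Ctrl overlapped.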
